A study of Mus musculus with 6 samples.

Results

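Keg1, also called kidney expressed gene 1, and 5 enzymes of glycine conjugation were followed in livers of mice treated with 9-HODE and 13-HODE, the hydroxyoctadecadienoic acids formed when linoleic acid is oxidised. The 6 genes were taken by name from a table of 55401 gene models: Keg1, Glyat and Gm4952, which lie near each other on chromosome 19, and Acsm1, Acsm3 and Acsm5, which lie close together on chromosome 7. Keg1 was chosen because it was lower in this very comparison, so its values are given as a description and nothing is read from its call. Its FPKM (fragments per kilobase of gene model, scaled to depth) averaged 37.7 ± 2.80 (SD, n = 3) in Ctrl livers and 5.68 ± 1.02 (SD, n = 3) in livers of mice given 9/13-HODEs, which is 15.1% of the Ctrl mean. The other 5 genes had means at 81.5% to 95.7% of Ctrl, and none of them passed the test. The mean FPKM was lower in the treated livers for all 6 genes, as it was for 58.5% of all tested genes, and nothing is read from that count.

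All mice were male C57BL/6 animals, 8 weeks old. For 9 days they received a daily intraperitoneal injection of a 1:1 mixture of the HODEs, together 0.5 μg/g body weight (9/13-HODEs), or of the solvent alone (Ctrl). Liver mRNA was sequenced from 3 mice per group, with 1 library per mouse. Both compounds were always given together, so their separate effects cannot be told apart, and in RNA from whole liver fewer cells of a type and less RNA per cell cannot be told apart either.

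Glycine conjugation is a detoxification route of mitochondria in liver and kidney. A carboxylic acid such as benzoate is first joined to coenzyme A by a medium-chain acyl-CoA synthetase, the family to which Acsm1, Acsm3 and Acsm5 belong. A glycine N-acyltransferase then moves the acyl group onto glycine, which frees coenzyme A and gives a conjugate such as hippurate that leaves in urine. Glyat is the classical liver enzyme of this second step, and Keg1 and Gm4952 are its neighbours and relatives in the mouse genome.

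The relation among the 3 acyltransferase genes is visible in their coding sequence. By alignment of whole coding sequences (885 bases in Keg1, 888 in Glyat and 888 in Gm4952), Keg1 shared 71.8% of bases with Gm4952 and 70.3% with Glyat, and Glyat shared 73.7% with Gm4952. The 90 coding bases around the longest stretch common to Keg1 and Gm4952 are shown, from the GENCODE M21 transcripts of GRCm38, because they hold the longest run of bases that Keg1 shares with either relative. Each runs 5′ to 3′ on the plus strand over the junction of exons 2 and 3, so the coordinates span an intron, and capitals mark bases that differ from Keg1. The windows are chr19:12709646-12711030 for Keg1, chr19:12639826-12646351 for Glyat and chr19:12613521-12618374 for Gm4952.
Keg1: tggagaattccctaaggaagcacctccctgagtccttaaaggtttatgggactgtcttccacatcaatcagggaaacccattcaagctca
Glyat: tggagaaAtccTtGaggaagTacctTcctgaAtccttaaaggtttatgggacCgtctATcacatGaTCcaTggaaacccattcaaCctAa
Gm4952: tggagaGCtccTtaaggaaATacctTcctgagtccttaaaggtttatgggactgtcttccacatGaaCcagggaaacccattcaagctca
In this window 15 bases of Glyat and 8 bases of Gm4952 differ from Keg1, and the longest run without a difference to Gm4952 is 38 bases. Few long stretches are shared over the whole mRNA. Of the 1646 stretches of 31 bases in the main Keg1 mRNA, 8 occur in Gm4952, all within the run of 38 bases shown. Another 5 occur in Glyat, within a run of 35 bases over the junction of exons 4 and 5. A further 142 lie in Gm15962, an antisense RNA over exons of Keg1. Neither Acsm1 nor Acsm5 had a stretch of that length in another gene, whereas 787 of the 2725 in Acsm3 (28.9%) are shared with Eri2, an exonuclease gene that overlaps it on the opposite strand.

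The promoters of the 3 acyltransferase genes are shown because 1 of the 3 neighbours differed between the groups. They run from 250 bases before to 50 bases after the start that RefSeq gives on GRCm38.p6, on the plus strand, 5′ to 3′. Keg1 is at chr19:12695540-12695839, Glyat at chr19:12633058-12633357 and Gm4952, which has a second start not shown, at chr19:12599734-12600033. Capitals mark matches to any of 10 motifs.
Keg1: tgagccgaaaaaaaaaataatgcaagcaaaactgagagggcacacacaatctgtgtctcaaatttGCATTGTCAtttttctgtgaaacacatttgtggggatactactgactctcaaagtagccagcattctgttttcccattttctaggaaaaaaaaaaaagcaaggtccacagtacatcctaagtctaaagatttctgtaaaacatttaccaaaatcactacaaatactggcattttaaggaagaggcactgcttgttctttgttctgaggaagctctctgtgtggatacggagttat
Glyat: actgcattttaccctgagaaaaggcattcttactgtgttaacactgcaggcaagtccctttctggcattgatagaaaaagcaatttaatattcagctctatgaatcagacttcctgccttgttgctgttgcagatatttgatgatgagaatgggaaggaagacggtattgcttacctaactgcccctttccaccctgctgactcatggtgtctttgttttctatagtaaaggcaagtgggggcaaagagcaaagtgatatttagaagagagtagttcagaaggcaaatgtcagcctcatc
Gm4952: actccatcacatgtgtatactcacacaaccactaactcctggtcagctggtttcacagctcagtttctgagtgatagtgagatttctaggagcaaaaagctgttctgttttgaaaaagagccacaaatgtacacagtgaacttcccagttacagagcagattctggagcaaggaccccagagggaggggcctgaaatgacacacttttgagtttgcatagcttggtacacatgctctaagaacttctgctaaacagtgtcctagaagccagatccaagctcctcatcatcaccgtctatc
The motifs, searched on both strands, were the core promoter motif TATAAA, the CCAAT box, the nuclear receptor half-site AGGTCA, the HNF4 motif CAAAGTCCA, the HNF1 half-site GTTAAT, the C/EBP motif TTGCNNAA, the FOXA motif TGTTTAC, the antioxidant response element TGACNNNGC, the SREBP element TCACNCCAC and the PPAR element, which is a direct repeat of the nuclear receptor half-site and so overlaps it. The Keg1 window held 1 match, to TGACNNNGC on the minus strand, a sequence that 12.4% of 32851 mouse promoters of this length also hold. The other motifs occurred in 0.0396% of these promoters (the PPAR element) to 37.4% (the CCAAT box). Neither the Glyat window nor either Gm4952 window held any of them. All of these windows were below the median G and C content of all promoters, 52.7%. Keg1 was at 37.3%, Glyat at 42.0% and the Gm4952 windows at 45.3% and 46.7%.

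The libraries held 70300597 to 78615288 counts, and 14741 genes whose mean FPKM reached 0.1 were tested, all 6 genes described here among them. By the edgeR quasi-likelihood test, with p adjusted after Benjamini and Hochberg, 3 genes passed 0.05 (0.0204%), all of them lower with 9/13-HODEs, and 1 of the 6 genes, Keg1, was among them, from which nothing is read because the same contrast chose it. DESeq2 called 0.631% of the genes it gave an adjusted p. A fold threshold, a log2 fold change beyond 0.65 in either direction with an unadjusted p under 0.05, was passed by 553 genes (3.75%, of which 1.72% were lower and 2.04% higher) and again by 1 of the 6. The FPKM of the groups did not overlap for 15.1% of the genes, 9.82% lower and 5.28% higher with 9/13-HODEs. The share of counts from mitochondrially encoded genes was 6.70% to 9.51% in Ctrl and 10.5% to 11.8% in the treated libraries, and its part in any result was not tested.

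Keg1 had an FPKM of 40.7, 37.0 and 35.2 in the Ctrl livers and of 6.08, 6.43 and 4.52 in the treated livers. The groups were far apart: the lowest Ctrl value was 5.48 times the highest treated value, while values within a group differed by at most 1.42 times. The counts behind them were 18694, 16403 and 16371 against 2703, 3069 and 2235, so even the lowest value rested on 2235 counts. The log2 fold change was −2.67, and the mean FPKM was 6.63-fold lower. Keg1 stood at rank 1031 to 1128 among all gene models by FPKM in the Ctrl livers and at rank 3324 to 3860 in the treated ones.

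**Figure D1:**
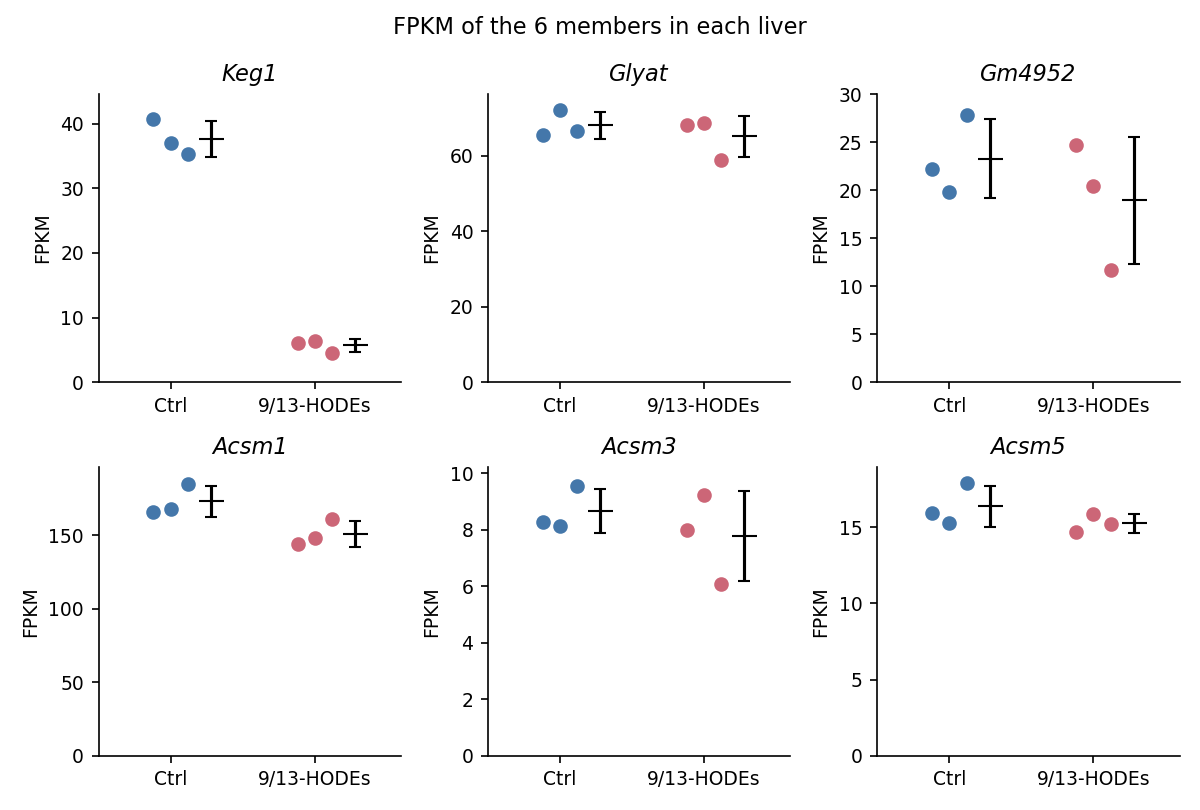
FPKM of the 6 genes in each liver (points; 3 Ctrl and 3 9/13-HODEs mice), with the group mean and SD. Keg1 runs from 35.2 to 40.7 in Ctrl and from 4.52 to 6.43 with 9/13-HODEs, whereas the groups of Glyat, Gm4952, Acsm3 and Acsm5 overlap and those of Acsm1 lie 4.77 FPKM apart.

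Glyat, the relative of Keg1 that carries out the glycine transfer in liver, was at 65.6, 72.2 and 66.5 FPKM in Ctrl and at 68.1, 68.6 and 58.8 FPKM with 9/13-HODEs. These values overlapped, and the log2 fold change was −0.0033 ± 0.10 (SE; 95% interval −0.25 to 0.24). A change of Glyat as large as that of Keg1 lies well outside this interval. Gm4952, a predicted member of the family, was at 22.2, 19.9 and 27.8 FPKM in Ctrl and at 24.7, 20.5 and 11.7 FPKM with 9/13-HODEs. Treated library 3 alone was below every Ctrl value, and the log2 fold change was −0.24 ± 0.25 (SE; 95% interval −0.82 to 0.35), or −0.011 without that library.

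Acsm1 was the most abundant of the synthetases, with 166.0, 168.2 and 185.1 FPKM in Ctrl and 144.0, 148.0 and 161.3 FPKM with 9/13-HODEs. Its groups did not overlap, and its treated mean was 87.3% of Ctrl, but the fitted log2 fold change was only −0.12 ± 0.11 (SE; 95% interval −0.38 to 0.13). The fit also scales the libraries to each other, which FPKM does not do. With library totals only, the fitted value was −0.21. Keg1 and Acsm1 were the 2 of 6 genes without overlap, both of them lower. The same held for 9.82% of all tested genes, and since Keg1 was chosen for its values, nothing is read from that count. Acsm3 had 8.27, 8.14 and 9.56 FPKM in Ctrl and 8.00, 9.22 and 6.06 FPKM with 9/13-HODEs, a log2 fold change of −0.097 ± 0.13 (SE; 95% interval −0.42 to 0.22). Treated library 2 lay within the Ctrl range of Acsm3 and the other treated libraries just or well below it. Acsm5 had 15.9, 15.3 and 17.9 FPKM against 14.7, 15.9 and 15.2 FPKM, a log2 fold change of −0.033 ± 0.088 (SE; 95% interval −0.24 to 0.18), and its groups overlapped too.

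For the 5 genes other than Keg1 the adjusted p ranged from 0.790 to 0.997 by edgeR's quasi-likelihood test. By edgeR 0 of the 5 passed 0.05, with 0 at an unadjusted p under 0.05 (7.69% of all genes), and 0 passed by DESeq2 or by limma-trend. The intervals above still allow a moderate change in either direction for each of them.

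The order of the genes by level depends on the length by which counts are divided. The deposited FPKM divides by a length close to all annotated exons of a gene model together, which for Keg1 is 3.38 times its main mRNA of 1676 bases, but for Gm4952 1.02 times. By FPKM the order was Acsm1, Glyat, Keg1, Gm4952, Acsm5 and Acsm3 in every Ctrl liver, with no overlap between neighbours in that order over the Ctrl livers. Keg1 was last in every treated liver, although its treated values overlapped those of Acsm3, and those of Gm4952 overlapped those of Acsm5. As counts per kilobase of the main mRNA, scaled to 1000000 counts per library, Keg1 was at 151.9, 139.2 and 132.0 in Ctrl and Glyat at 122.7, 136.2 and 124.9, so that Keg1 stood above Glyat in each Ctrl liver. The groups of values overlap, and the order of these neighbours in the list is not beyond their spread. The scale also divides counts from all transcripts of a model by the main mRNA alone, so it is an upper bound for that mRNA. All exons of Glyat together are 1.69 times its main mRNA, against 3.38 times for Keg1, so the bound is looser for Keg1. In the treated livers Keg1 was at 22.5, 23.9 and 17.0 on this scale and Glyat at 126.2, 127.6 and 110.6. Keg1 then stood near Gm4952 (21.2 ± 7.28, SD, n = 3) and Acsm5 (21.4 ± 0.893, SD, n = 3), at a mean of 21.1 ± 3.66 (SD, n = 3).

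Within the acyltransferase trio, the composition of the transcripts shifted. Keg1 made up 27.2% to 31.7% of the summed FPKM of Keg1, Glyat and Gm4952 in Ctrl livers and 6.02% to 6.74% in treated livers. Per kilobase of main mRNA the shares were 45.8% to 50.7% and 12.04% to 13.7%. The ratio of Keg1 to Glyat FPKM, which does not depend on depth, was 0.621, 0.512 and 0.530 in Ctrl and 0.0893, 0.0938 and 0.0768 with 9/13-HODEs. The summed FPKM of the trio was 128.5 to 129.6 in Ctrl and 75.1 to 98.9 in the treated livers. These shares and ratios carry the Keg1 values that chose the gene and are not tested.

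**Figure D2:**
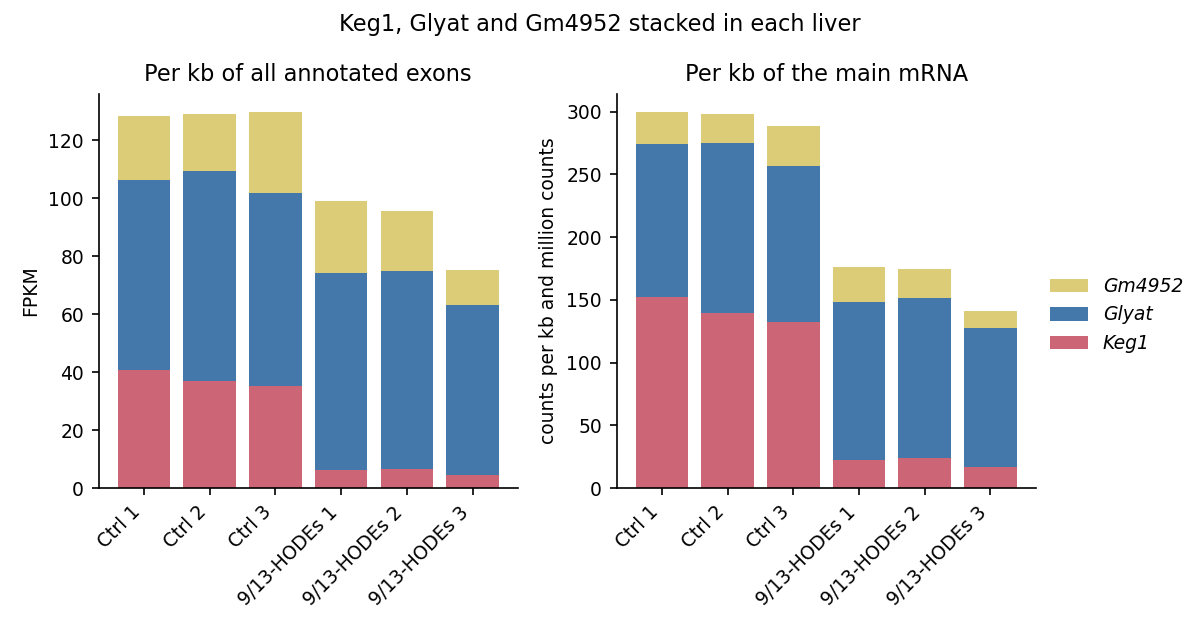
Stacked values of Keg1, Glyat and Gm4952 in each liver, as deposited FPKM and as counts per kilobase of main mRNA scaled to 1000000 counts. The Keg1 segment is 27.2% to 31.7% of the FPKM stack in Ctrl and 6.02% to 6.74% with 9/13-HODEs.

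Gene models around Keg1 were examined to see whether the lower level extended over the region. Keg1 (ENSMUSG00000024694) occupies chr19:12695786-12719902 on the plus strand, Glyat (ENSMUSG00000063683) chr19:12633308-12653911 and Gm4952 (ENSMUSG00000071633) chr19:12599974-12628251, both on the same strand, in coordinates of the deposited table, which match GRCm38. Counting Glyat and Gm4952, 28 gene models other than Keg1 lie within 250 kb, of which 12 had no count in any library and 11 were tested. By edgeR's quasi-likelihood test 0 of the 11 passed an adjusted p of 0.05 (smallest adjusted p 0.734), with 0 at an unadjusted p under 0.05, and 0 passed by DESeq2 or limma-trend. Their log2 fold changes ran from −0.58 to 0.60. The lowest was that of Fam111a, at 0.141, 0.176 and 0.151 FPKM in Ctrl and 0.0567, 0.135 and 0.104 FPKM with 9/13-HODEs. Fam111a, a protease gene, was the 1 of 11 tested neighbours whose groups did not overlap, against 15.1% of all tested genes. Its log2 fold change had a standard error of 0.41. The highest was Lpxn, which encodes the focal adhesion protein leupaxin. Zfp91, a zinc finger gene on the other side of Keg1 from Glyat, was at 4.64, 4.72 and 5.15 FPKM in Ctrl and at 4.65, 4.97 and 3.80 FPKM with 9/13-HODEs. The other tested models were Mpeg1, Dtx4, A330040F15Rik, Cntf, Gm5512, a second model of Zfp91, Glyat and Gm4952. Cntf and the second model of Zfp91 were too imprecise to tell whether they changed as Keg1 did, at −2.67. Their standard errors were 2.24 (95% interval −5.33 to 5.37) and 1.56 (95% interval −3.44 to 4.01). The intervals of the remaining tested neighbours reached no lower than −1.78, that of Gm5512.

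**Figure D3:**
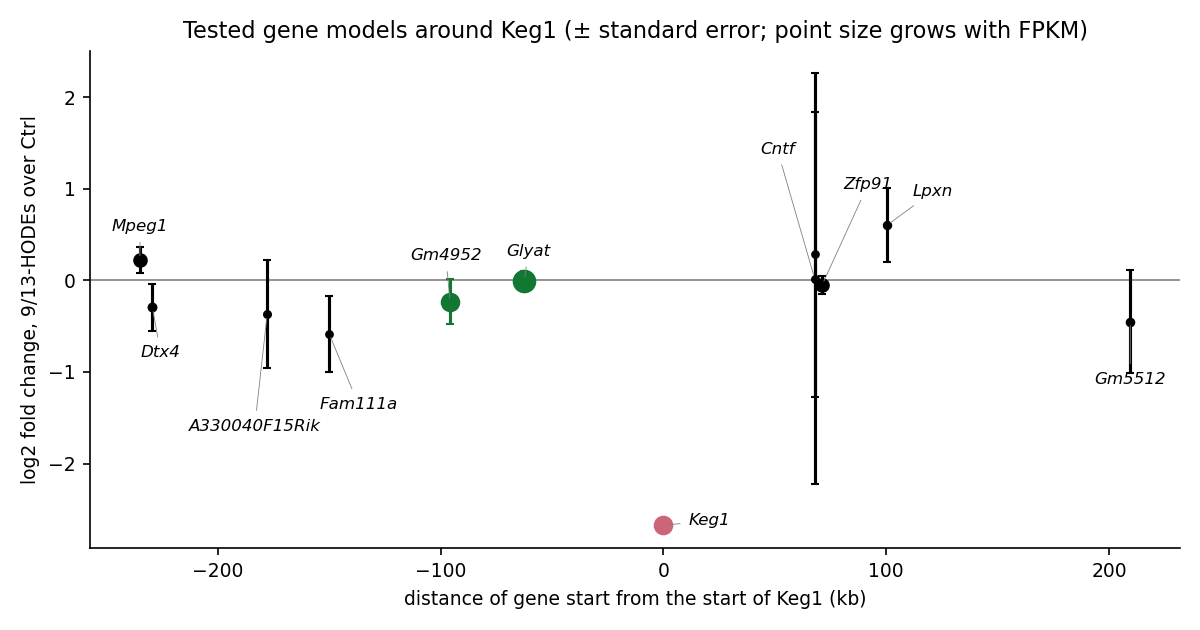
Log2 fold change (9/13-HODEs over Ctrl) of Keg1 and, with ± SE, of the 11 tested gene models within 250 kb, by distance of their starts in kb, with larger points for higher FPKM. Keg1 lies at −2.67 and its neighbours between −0.58 and 0.60.

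A single gene model overlaps Keg1, the antisense RNA Gm15962 on the minus strand. It had 2, 7 and 19 counts in Ctrl and 0, 8 and 0 counts with 9/13-HODEs, against 2235 to 18694 for Keg1. No model overlaps Keg1 on its own strand. The 9 olfactory receptor genes of the region had at most 12 counts in any library. At the chromosome 7 cluster, antisense models overlap Acsm1 (Gm19950, 128 to 801 counts against 24638 to 33103 for Acsm1), and Pdilt, a testis disulfide isomerase gene, overlaps the start of Acsm5. Eri2 over Acsm3 had 89 to 460 counts against 2613 to 3871. The libraries mark the strand, but whether the counting used it is not given, so reads of these pairs may have been mixed. Acsm1 (ENSMUSG00000033533) lies at chr7:119607026-119662515, Acsm3 (ENSMUSG00000030935) at chr7:119760923-119787513 and Acsm5 (ENSMUSG00000030972) at chr7:119519463-119545551, all on the plus strand.

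The closest relatives outside the 6 genes were hardly expressed. Glyatl3 and Acsm4 had 0 counts in all 6 libraries. Acsm2, the synthetase gene next to Acsm5, had 75, 90 and 92 counts in Ctrl and 23, 44 and 0 counts with 9/13-HODEs. All treated values were below all Ctrl values, but the mean FPKM was under 0.1 and Acsm2 was not among the tested genes. In a fit of all genes with no minimum the log2 fold change of Acsm2 was −1.95 ± 1.01 (SE), with an adjusted p of 0.687 by edgeR.

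Genes that feed or surround the conjugation step were read as 5 lists of 66 genes, of which 59 were tested. By edgeR 0 of the 59 passed an adjusted p of 0.05, and 0 passed by DESeq2 or limma-trend. An unadjusted p under 0.05 by edgeR was found for 5 of the 59, against 7.69% of all tested genes, and nothing is read from that count. The fold threshold was passed by 1 of 59 (1.69%, against 3.75% of all tested genes). Log2 fold changes were positive for 25 and negative for 34, with a median of −0.036 against 0.0012 over all genes. By edgeR 49.9% of all tested genes had a negative log2 fold change. Nothing is read from the signs here or in the separate lists below. Groups did not overlap for 10 of the 59 (16.9%, against 15.1% of all), 8 of them lower and 2 higher.

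The list of glycine supply and use had 22 of 25 genes tested, 7 with a positive and 15 with a negative log2 fold change (median −0.045). Slc6a9, the glycine transporter GLYT1, was the gene past the fold threshold, at 9.90, 2.82 and 4.75 FPKM in Ctrl and 2.25, 2.01 and 2.88 FPKM with 9/13-HODEs. Its groups overlapped and Ctrl library 1 stood far above the rest. The log2 fold change was −1.21 ± 0.45 (SE; adjusted p 0.649 by edgeR), or −0.57 without that library. Among the genes at an unadjusted p under 0.05, chosen after their values were seen, were Hao1, Gclc, Gamt and Gcat. Hao1, the glycolate oxidase that makes the glycine precursor glyoxylate, was at 60.2, 61.3 and 68.7 FPKM in Ctrl and 49.0, 50.5 and 39.5 FPKM with 9/13-HODEs. Its groups did not overlap, and its log2 fold change was −0.39 ± 0.10 (SE; adjusted p 0.649 by edgeR). Gclc, the catalytic subunit of the enzyme that begins glutathione synthesis, was at 19.9, 20.4 and 23.9 FPKM against 17.0, 17.0 and 15.2 FPKM, again without overlap, with a log2 fold change of −0.32 ± 0.09 (SE; adjusted p 0.649 by edgeR). The same list held values on the other side. Gamt, which makes creatine from a glycine-derived precursor, was at 406.1, 368.6 and 294.2 FPKM in Ctrl and 458.1, 412.7 and 576.3 FPKM with 9/13-HODEs. Its groups did not overlap, and its log2 fold change was 0.51 ± 0.21 (SE; adjusted p 0.649 by edgeR). Gcat, which forms glycine in mitochondria in a reaction with coenzyme A, was at 42.4, 31.3 and 37.2 FPKM against 45.8, 42.9 and 41.2 FPKM. Its groups overlapped, and its log2 fold change was 0.30 ± 0.12 (SE; adjusted p 0.649 by edgeR).

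Conjugation of bile acids and fatty acids to amino acids is the sister reaction in peroxisomes. All 6 of its genes were tested, 4 with a positive and 2 with a negative log2 fold change (median 0.021). Baat, which joins bile acids to taurine or glycine, was at 80.0, 70.7 and 75.4 FPKM in Ctrl and 62.0, 70.4 and 63.8 FPKM with 9/13-HODEs. These groups did not overlap by a narrow margin, and the log2 fold change was −0.14. Slc27a2, a fatty acid transporter with acyl-CoA synthetase activity, had −0.18. Neither passed the adjusted test.

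Coenzyme A supply had 13 genes tested, 6 with a positive and 7 with a negative log2 fold change (median −0.033). The smallest p values belonged to Slc25a16, a mitochondrial carrier (log2 fold change −0.32), and Nudt7, a peroxisomal coenzyme A hydrolase (−0.37). Short and medium chain acyl-CoA metabolism had 18 of 19 genes tested, 8 positive and 10 negative (median −0.055). Acss2, the cytosolic acetyl-CoA synthetase, was at 12.2, 4.72 and 10.6 FPKM in Ctrl and 14.5, 12.7 and 13.4 FPKM with 9/13-HODEs, without overlap and with a log2 fold change of 0.64. Acads, the short-chain acyl-CoA dehydrogenase, was at 54.7, 49.1 and 42.6 FPKM against 21.9, 22.1 and 48.6 FPKM. Treated library 3 lay within the Ctrl range and the other 2 well below it, with a log2 fold change of −0.57. None of these passed the adjusted test.

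**Figure D4:**
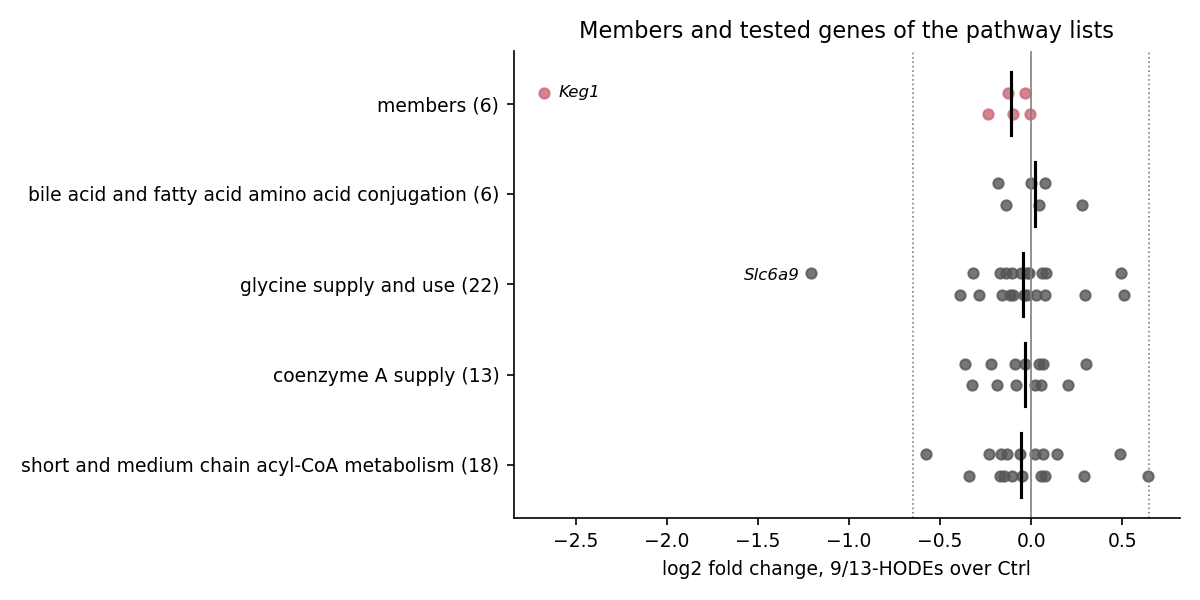
Log2 fold change (9/13-HODEs over Ctrl) of each tested gene, grouped by list, 1 point per gene. Keg1 stands at −2.67, apart from the other 5 genes of its group, and the 59 genes of the surrounding lists centre on a median of −0.036.

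Because Keg1 takes its name from kidney, markers of kidney cells were read in the same libraries. Of 12 markers, 8 had 0 counts in all 6 libraries, including the tubule genes Umod, Slc34a1 and Aqp2. Nphs1, the podocyte gene nephrin, was the marker with a mean above 0.1 FPKM, at 2.73 to 5.08 FPKM in Ctrl and 3.51 to 6.55 FPKM with 9/13-HODEs. The summed FPKM of the list was 2.74 to 5.09 in Ctrl and 3.57 to 6.55 in treated livers, and these ranges overlapped. All 8 hepatocyte markers were tested, with a summed FPKM, most of it Alb, Apoa1 and Ttr, of 61563 to 67608 in Ctrl and 57508 to 67847 with 9/13-HODEs and a median log2 fold change of 0.060. The groups did not overlap for 3 of the 8, lower for Serpina1a (79.7% of the Ctrl mean) and Cps1 (78.7%) and higher for Asgr1 (103.4%). Over all tested genes 15.1% had no overlap, 9.82% lower and 5.28% higher, and nothing is read from these 3. All 4 adipocyte markers were listed at 0 in every Ctrl library and summed to 0.0549 to 1.19 FPKM in the treated ones, where Adipoq, Lep and Plin1 had counts in library 1 alone and Retn had 61, 8 and 10 counts. Retn passed the fold threshold, but nothing is read from that. Its mean of 0.103 FPKM reached the minimum for testing only through the treated libraries. The 4 lymphocyte and neutrophil markers summed to 1.33 to 3.83 FPKM in Ctrl and 3.32 to 11.4 FPKM with 9/13-HODEs, and these ranges overlapped. Treated library 2 had the highest sum, most of it S100a9 (7.20 FPKM) and S100a8 (3.19 FPKM). Of the 3 sinusoidal endothelial markers, Lyve1 was past the fold threshold, at 0.452, 0.300 and 0.700 FPKM in Ctrl and 0.801, 1.15 and 0.908 FPKM with 9/13-HODEs. That threshold was passed by 3.75% of all tested genes, 2.04% higher, and nothing is read from Lyve1. Stab2 and Clec4g had log2 fold changes of 0.40 and 0.047, with overlapping groups, and were not past it. All 4 stellate cell markers had positive log2 fold changes (median 0.26), with overlapping groups. Of the 4 Kupffer cell markers, Adgre1, at a mean of 0.37 FPKM, was lower without overlap (65.8% of the Ctrl mean). Clec4f and Cd5l had positive log2 fold changes (0.16 and 0.14) and Vsig4 had −0.064, all with overlapping groups. The median of the 4 was 0.037. The part of these cells in the values of Keg1 was not tested.

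The genes whose pattern over the 6 libraries was most like that of Keg1 were ranked by Pearson's r of log2(FPKM + 0.1) among the 8252 genes whose mean FPKM reached 1. The first 5 were Snx12 (r = 0.990), Gpx1 (0.988), Tars2 (0.987), Bola1 (0.987) and Dgat1 (0.984). With 6 libraries that fall into 2 groups, r mostly reflects the step between the groups, and it is given as a description. Gpx1, a glutathione peroxidase that reduces hydrogen peroxide, was at 1368, 1385 and 1379 FPKM in Ctrl and at 851, 911 and 887 FPKM with 9/13-HODEs. Bola1, a mitochondrial protein of the BolA family, was at 31.8, 31.3 and 27.4 FPKM against 3.33, 2.41 and 3.02 FPKM. Both were separated in every library, Bola1 by a larger ratio than Keg1 (9.69% of the Ctrl mean) and Gpx1 by a smaller one (64.1%). Snx12, a sorting nexin, Tars2, the mitochondrial threonyl-tRNA synthetase, and Dgat1, which makes triglyceride from diacylglycerol, were at 62.5%, 61.5% and 47.0% of their Ctrl means. Among the other conjugation genes the r with Keg1 was 0.75 for Acsm1, 0.53 for Acsm5, 0.52 for Gm4952, 0.49 for Acsm3 and 0.45 for Glyat.

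**Figure D5:**
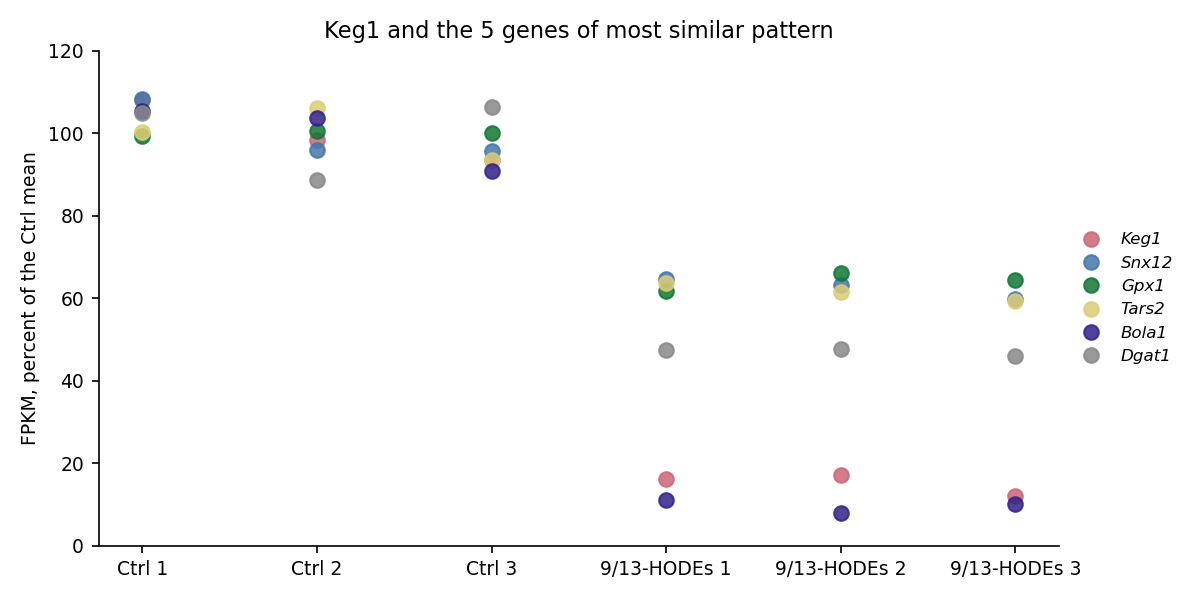
Level of Keg1 and of the 5 genes most like it in each of the 6 livers, 1 point per liver. Every treated value lies below every Ctrl value of the same gene, with treated means at 9.69% of Ctrl for Bola1, 15.1% for Keg1 and 47.0% to 64.1% for the others.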

How the data were processed

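Liver RNA of 3 Ctrl and 3 9/13-HODEs mice was analysed (1 library per mouse). The authors deposited whole-number counts, not normalized, and FPKM values, counts scaled by depth and by 1 fixed length per gene model, in which a count of 0 is listed as 0.0001. According to the submitters' processing notes the tools included StringTie 1.3.4d, HISAT2 2.0.4 and cutadapt 1.9, as well as UMI-tools, edgeR and DESeq2, but their roles and settings are not given. The genome build is not given in the sources used here, but 54928 gene starts equal GENCODE M21 (GRCm38). The implied FPKM length was 1.11 times the union of annotated exons (median) and differed by at most 1.02 times between libraries, so it holds no isoform information.

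Counts of 14741 genes, those whose mean FPKM reached 0.1, were tested with edgeR 4.0.16 (R 4.3.3; TMM, quasi-likelihood, Benjamini-Hochberg over all tested genes, threshold 0.05). limma 3.58.1 and DESeq2 1.42.0 served as alternatives, as did other scalings, filters and pseudocounts, a replicate block and each replicate left out. Levels per main mRNA were added after seeing the data. The code was tested on simulated data. Coding sequences were aligned with MAFFT 7.526.

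The members, lists and tests were chosen with earlier results of these data known. The genes named were the 6 members, tested neighbours within 250 kb, the 5 genes most like Keg1 and, per pathway list, those past the fold threshold or else the 2 of smallest p. Markers are named by their levels, and those given with a difference between the groups were named after their values were seen. Acsm2, the other glycine genes and the genes overlapping Acsm members were named after their values were seen. Libraries held 70300597 to 78615288 counts. The common coefficient of variation between mice was 0.36 over all tested genes. For the members, the coefficient of variation of FPKM within a group was 4.00% (Acsm5, treated) to 34.9% (Gm4952, treated). This spread limits their precision more than depth does. Whether same-group mice shared litters is not given, so p-values measure the spread between these mice.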

Additional observations from a re-analysis of the deposited data

How the results depend on the processing

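Keg1 was lower under all 15 alternatives, with a log2 fold change of −2.81 to −2.54 (−2.74 to −2.57 with 1 library left out). The replicate numbers are only numbers: same-numbered libraries deviated together with correlations of 0.0071, −0.0277 and −0.0377, and not every library correlated best with its own number. With the replicate block 0 of the 6 members and 0 of all genes were called, against 1 and 3, and 2 genes of the pathway lists passed the fold threshold, against 1. The member called is Keg1, which these libraries chose, so nothing is read from its call with each library left out (1 to 1). DESeq2 called 89 of all genes, and with 1 library left out 3 to 16 were called. The fold threshold was passed by 229 genes under a minimum mean FPKM of 1 and by 180 with limma on log2(FPKM + 1), against 553 (523 to 617 with 1 library left out). For the pathway lists it was 2 with limma on log2(TPM + 0.1) and 0 to 3 with 1 library left out. The median log2 fold change over all genes shifted by −0.14 with TPM, by −0.075 with library totals only and by −0.060 with limma on log2(FPKM + 0.1). Percentages of Ctrl means and the overlap of groups, both taken from FPKM, include such a shift.

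Glyat turned to 0.00042 under a minimum mean FPKM of 1, and ranged from −0.049 to 0.073 with 1 library left out (0.073 without Ctrl library 2 and 0.027 without treated library 3). Acsm3 ranged from −0.20 to 0.019 (0.019 without treated library 3) and Acsm5 from −0.074 to 0.0039 (0.0039 without Ctrl library 3, 0.0032 without treated library 1). The cause was not tested. Gm4952 and Acsm1 kept a negative sign under all 15. Within 100 kb of Keg1 7 models were tested instead of 11, and 0 overlap it on the same strand. Per main mRNA the mean ratio of Keg1 to Glyat was 1.11 in Ctrl and 0.173 in treated livers, against 0.554 and 0.0866 by FPKM.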
